A study of Mus musculus with 6 samples.

Results

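The genes described here are actins and cytoskeletal targets of the transcription factor SRF, 10 genes of the 55367 rows of a table of RNA sequencing values from LLC cells, a mouse line derived from a Lewis lung carcinoma. They are the actins Actb, Actg1 and Acta2, the transcription factor Srf itself, and the actin-associated proteins Vcl, Flna, Tagln, Tagln2, Cnn2 and Tpm1. The set was chosen by the level of the reference gene Actb, which was higher after treatment in these same libraries, so the values of the members are given as a description, with no test. The wild-type cells were grown in DMEM with fetal bovine serum and received either the solvent DMSO or 5 µM STM2457 for 46 h. STM2457 blocks the catalytic site of METTL3, which places the methyl mark N6-methyladenosine on RNA. Each group held 3 libraries, with 17671698 to 17679451 reads in genes in DMSO and 17877634 to 17917208 in STM2457. Nothing in the labels says that the replicates were separate cultures. Each p-value therefore reflects the spread among these samples alone, which may be technical.

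Actin exists as a monomer and as a filament, and the balance between the forms is read by SRF. SRF binds a short DNA element, the CArG box, together with a partner. One class of partners, the MRTFs, is held in the cytoplasm by monomeric actin and enters the nucleus when monomers are used up by polymerisation. The MRTF-SRF pair then drives actin genes, Srf and many genes of actin filaments and adhesions, while a second class of partners, the TCFs, couples SRF to growth factor signalling and the immediate-early genes. Because beta-actin is abundant in most cells, Actb is also widely used as a reference for the levels of other transcripts.

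The CArG box, CC and GG around a run of A and T, is the sequence that SRF binds. RefSeq promoters of GRCm38.p6, from 250 bases before to 50 bases after the start site, were matched to 8 of the 10 members, all but Actb and Tagln. Of those 8 promoters, 4 held a CArG box on either strand, against 535 of 32851 promoters in the table (1.63%). The members were grouped as targets of SRF, so a share above that of all promoters is built into the set. A box reads as a box on both strands, and a match is a description of the letters only. Acta2, Flna, Tagln2 and Tpm1 had no match in this window. The 4 promoters are shown around their boxes, 5′ to 3′ on the strand of the gene, with the box in capitals. Actg1 (chr11:120348551-120348610, minus strand) has it at -90 to -81 from the start site. Srf (chr17:46556190-46556269, minus strand) has boxes at -82 to -73 and at -62 to -53. In Vcl (chr14:20929148-20929205, plus strand) it lies at -227 to -218, and in Cnn2 (chr10:79988519-79988578, plus strand) at -56 to -47.
Actg1: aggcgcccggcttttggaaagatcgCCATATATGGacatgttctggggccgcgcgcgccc
Srf: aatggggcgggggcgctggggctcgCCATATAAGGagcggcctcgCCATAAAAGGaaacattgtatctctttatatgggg
Vcl: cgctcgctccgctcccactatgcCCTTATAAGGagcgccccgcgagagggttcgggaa
Cnn2: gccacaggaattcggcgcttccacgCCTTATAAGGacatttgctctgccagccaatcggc

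Both cytoplasmic actins, Srf, Flna and Cnn2 were higher in every STM2457 library than in any DMSO library, by 1.19-fold to 1.54-fold. Vcl, Tagln2, Tpm1 and the smooth muscle actin Acta2 overlapped between the groups, and no member lay lower in every STM2457 library. Tagln was at the limit of detection. Non-overlap in the direction of a rise was common in this comparison: it held for 4216 of the 12618 genes with a mean of at least about 10 reads, or 33.4%, and non-overlap in the other direction for 28.4%. Over the 9 members that passed this filter on low reads (all but Tagln) the median difference in the deposited log2 values was 0.15, against 0.004 over all tested genes. Because the contrast chose the members, nothing is read from their count or median.

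Levels are given as normalised reads, the reads recovered from the deposited log2 values divided by the size factor of the library. Differences on the log2 scale are of the deposited values, which are shrunken and understate the change, and their errors are limma standard errors. The shrinkage is stronger for genes with few reads. The rank of a difference among the tested genes therefore also depends on the level of the gene. In these bulk samples more cells of a kind and more RNA per cell cannot be told apart.

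Actb, which encodes beta-actin (chromosome 5, 142903115 to 142906754, GRCm38), had 32446, 26670 and 31352 normalised reads in the DMSO libraries, in the order of replicates 1 to 3 used throughout, and 39804, 40214 and 40151 in the STM2457 libraries. The 3 STM2457 libraries lay within a narrow band (CV 0.552%), all above the DMSO libraries, which were more spread (CV 10.2%), with DMSO replicate 2 the lowest. The mean went from 30156 ± 3068 to 40057 ± 221 (SD, n = 3), a ratio of 1.33 and a log2 difference of 0.25 (SE 0.035). That difference was larger than the differences of 95.3% of tested genes.

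Actg1, which encodes gamma-actin, the other actin of non-muscle cells (chromosome 11, 120345690 to 120348542), had 29784, 25503 and 29328 normalised reads in DMSO and 39732, 39585 and 40758 in STM2457. The groups did not overlap, and the lowest STM2457 library stood above the highest DMSO library by 34.8% of the DMSO mean. The ratio of the means, 28205 ± 2351 to 40025 ± 639 (SD, n = 3), was 1.42, with a log2 difference of 0.30 (SE 0.027). Actb stood slightly above Actg1 in every DMSO library, with 1.09, 1.05 and 1.07 Actb reads per Actg1 read, and level with it in STM2457, with 1.00, 1.02 and 0.985. This ratio did not overlap between the groups either.

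Together the 2 cytoplasmic actins took 0.352%, 0.297% and 0.342% of all reads in genes in the DMSO libraries and 0.447%, 0.448% and 0.457% in the STM2457 libraries. Their exact binomial 95% intervals (Clopper-Pearson), which cover counting error only, ran from 0.295% to 0.354% in DMSO and from 0.444% to 0.460% in STM2457. The coding sequences of Actb and Actg1 are each 1128 bases long and 88.7% identical, with a longest shared run of 62 bases. After the stop codon the transcripts share only 41.0% of aligned bases. The sources used here do not give how reads matching both genes were counted, so the split between them is uncertain where they are alike. Other cytoplasmic actin rows took almost nothing: Actbl2 and the pseudogene Actb-ps1 had 0 reads, and the pseudogene Actg-ps1 had 1 to 6.

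Acta2, the actin of smooth muscle and of contractile fibroblasts (chromosome 19, 34241090 to 34255590), had 793.2, 655.2 and 915.1 normalised reads in DMSO and 801.6, 785.1 and 920.5 in STM2457. The groups overlapped, and the ratio of 1.06 came with a log2 difference of 0.05 (SE 0.071), smaller than its error. Without DMSO replicate 2, which had the lowest value of all 6 libraries, the ratio was 0.978. The other muscle actins, Acta1, Actc1 and Actg2, had 0 to 2 reads in each library. Actb reads per Acta2 read were higher in every STM2457 library (48.2 ± 4.0 against 38.6 ± 3.8, SD, n = 3). The coding sequences of Acta2 and Actg1 are 81.5% identical, with a longest shared run of 56 bases. Only a read that lies wholly within a shared run cannot be told apart, and the read length is not given here.

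Srf, the transcription factor whose own promoter holds the 2 CArG boxes shown above (chromosome 17, 46548329 to 46556175), had 1657, 1576 and 1716 normalised reads in DMSO and 2523, 2543 and 2551 in STM2457. It was the member with the largest relative difference, and both groups were tight (CV 4.27% and 0.563%). The ratio was 1.54 and the log2 difference 0.36 (SE 0.023), above the differences of 98.9% of tested genes.

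**Figure D1:**
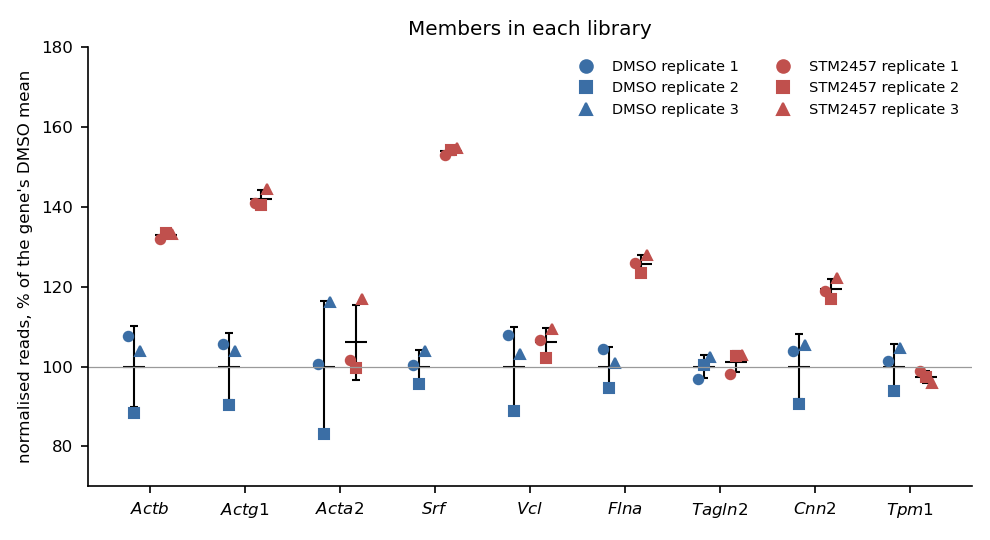
Normalised reads of the 9 members with a mean of at least 10 reads, as a percentage of each gene's DMSO mean; points are libraries, with a marker shape for each replicate number, and black bars are the mean and SD of 3 libraries. Actb, Actg1, Srf, Flna and Cnn2 lie above every DMSO library in STM2457, while Acta2, Vcl, Tagln2 and Tpm1 overlap, and DMSO replicate 2 (blue square) is the lowest DMSO library in 8 of the 9.

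Flna, which encodes filamin A, a large protein that cross-links actin filaments into networks (chromosome X, 74223461 to 74249820), had 20475, 18542 and 19778 normalised reads in DMSO and 24702, 24188 and 25051 in STM2457. The groups were apart, with a ratio of 1.26 and a log2 difference of 0.20 (SE 0.023). Cnn2, a calponin that binds and stabilises filaments in non-muscle cells (chromosome 10, 79988584 to 79996062), had 4974, 4349 and 5055 in DMSO and 5699, 5599 and 5856 in STM2457. This was the smallest of the 5 differences without overlap, with a ratio of 1.19 and a log2 difference of 0.15 (SE 0.027). Of these 2 genes Cnn2 holds a CArG box in the promoter window and Flna does not.

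Vcl, which encodes vinculin, the protein that links adhesions to actin (chromosome 14, 20929398 to 21033676), had 1832, 1506 and 1750 normalised reads in DMSO and 1808, 1734 and 1857 in STM2457. Its promoter holds a CArG box. Its groups overlapped, and the ratio of 1.06 became 1.01 without DMSO replicate 2. Its exons overlap those of Ap3m1 on the opposite strand, and the sources used here do not give whether counting used strand, so reads there cannot be told apart. Tagln2, a transgelin of non-muscle cells that binds actin (chromosome 1, 172500047 to 172507380), was nearly level, with 9438, 9781 and 9975 normalised reads in DMSO and 9557, 9988 and 10012 in STM2457. Its ratio was 1.01 and its log2 difference 0.01 (SE 0.022).

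Tpm1, a tropomyosin that runs along the filament (chromosome 9, 67022590 to 67049406), had 21881, 20221 and 22566 normalised reads in DMSO and 21293, 21013 and 20644 in STM2457. It was the only one of those 9 members whose mean was lower after STM2457, with a ratio of 0.973 and a log2 difference of -0.02 (SE 0.024), and the groups overlapped. Tagln, the transgelin of smooth muscle (chromosome 9, 45929619 to 45936058), had 1, 1 and 2 reads in DMSO and 2, 0 and 0 in STM2457. These counts are at or under 3 reads, the upper limit of a count of 0 (0.167 to 0.17 CPM here, for counting error only), so no fold is given.

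Levels can be compared between genes only per length of exon. The length used was the union of the exons of all annotated transcripts of a gene. It can exceed the length of the transcripts expressed, which were not determined, so the order below depends on this choice. In DMSO, Actb (11256 normalised reads per kb) and Actg1 (10611) led the members, followed by Tagln2 (4674), Tpm1 (3324), Flna (2085), Cnn2 (1948), Srf (570), Acta2 (359), Vcl (207) and Tagln (0.671). The ranges of Actb and Actg1 overlapped across the DMSO libraries, as did those of Flna and Cnn2, but within each DMSO library Actb stood above Actg1 and Flna above Cnn2. After STM2457 Actg1 stood at 15058 and Actb at 14952 per kb, and their order differed between libraries. The other members kept their places, with Flna at 2622 and Cnn2 at 2324, and the ranges of these 2 no longer overlapped.

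**Figure D2:**
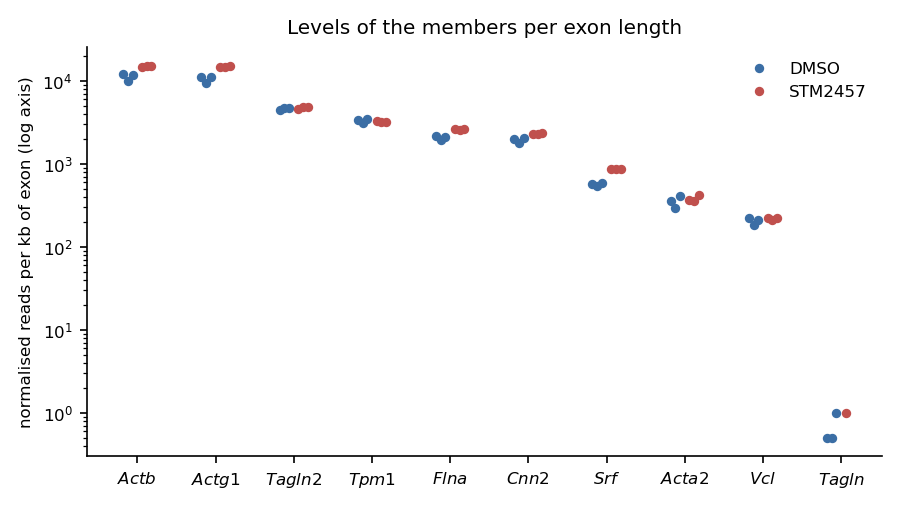
Normalised reads per kb of exon on a log axis for the 10 members, ordered by their DMSO mean; each point is a library. The cytoplasmic actins lie above the other members in every library, and Tagln is at the floor, with 2 STM2457 libraries at 0 and so not drawn.

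DMSO replicate 2 was low for most of these genes. It was the lowest of the DMSO libraries in 8 of the 9 members that passed the filter (88.9%), all but Tagln2, against 37.2% of all tested genes. The median log2 ratio of DMSO replicate 2 to the mean of the other DMSO libraries was -0.21 over the members and -0.003 over all tested genes. The set was chosen for a rise of Actb over DMSO, which a low DMSO library enlarges. Several members also vary together with Actb, so they are not separate observations, and nothing is read from this count. Without it the ratio of STM2457 to DMSO was 1.26 for Actb, 1.35 for Actg1, 1.51 for Srf, 1.23 for Flna and 1.14 for Cnn2, and none of the 5 overlapped. Tpm1 was then lower in every STM2457 library, with a ratio of 0.944. Without STM2457 replicate 1, Tagln2 was also higher in both remaining STM2457 libraries.

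The variation of Actb across the 6 libraries was followed closely by Actg1 (Pearson's r 0.991), Flna (0.983), Cnn2 (0.981) and Srf (0.954), less by Vcl (0.732) and Acta2 (0.526), and hardly by Tagln2 (0.177) and Tpm1 (-0.029). These values mix the difference between the groups with the spread within them, and all come from the same 6 libraries. Rows with only a clone, model or pseudogene name were left out of the choice of genes most like Actb. Of the remaining tested genes these were Ankrd6 (r 0.9978), Fnbp4 (0.9977), Dpp3 (0.9975), Rps6ka4 (0.9971) and Lbhd1 (0.9965). By the same measure Actg1 ranked 46, Flna 140, Cnn2 175 and Srf 694 among all tested genes, with no row left out.

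Other genes of the system were taken from lists written with earlier results of these data known, so their counts are not independent evidence. They were tested with limma on the deposited values, with Benjamini-Hochberg adjusted p-values over all 12618 genes. By that test 3868 genes rose (30.7%) and 3240 fell (25.7%) across the table, and the counts below are to be read against those shares. With each library centred on its upper quartile, a shift of -0.038 on the log2 scale, the split was 2819 higher and 4814 lower.

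Among paralogs of the members, 3 of the 6 tested genes described here rose and 1 fell. The filamin Flnc rose 1.15-fold (adjusted p = 0.000423), beside Flna. The tropomyosins were divided: Tpm3 rose 1.06-fold (adjusted p = 0.0316) and Tpm4 rose 1.08-fold (adjusted p = 0.0315), while Tpm2 fell to 0.889 of its DMSO level (adjusted p = 0.00174). The calls of Tpm3 and Tpm4 were lost with upper-quartile centring (adjusted p = 0.49 and 0.30) and without trend and robust priors (0.063 and 0.088). Both were also lost without STM2457 replicate 1 or without STM2457 replicate 3, which left 1 paralog higher. Tpm3 was lost as well without DMSO replicate 3 (adjusted p = 0.062) or STM2457 replicate 2 (0.080), and Tpm4 without DMSO replicate 2 (adjusted p = 0.20). Cnn3, another calponin, and Ctnna1, the vinculin relative alpha-catenin, did not pass, at ratios of 0.956 and 0.967. Cnn1, Tagln3 and the 4 listed actins Acta1, Actc1, Actg2 and Actbl2 had too few reads to test.

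Of the partners of SRF and their regulators, 1 of 7 tested genes rose and 2 fell. Mrtfa, the actin-sensing coactivator, rose 1.25-fold (adjusted p = 6.08e-07), and its relative Mrtfb, at a ratio of 1.08, did not pass (adjusted p = 0.0979). Without DMSO replicate 1 or without STM2457 replicate 1, Mrtfb was called and the list held 2 genes higher. The TCF genes Elk1, Elk3 and Elk4 had ratios of 0.965, 1.00 and 1.03 and did not pass. Fhl2, a LIM protein that binds SRF, fell to 0.843 of its DMSO level (adjusted p = 4.19e-05). Scai, a repressor of MRTF activity, fell to 0.884 at the edge of the threshold (adjusted p = 0.04995), and its call was lost when any of the 6 libraries was left out (adjusted p from 0.051 to 0.17), with no filter (0.083) and with limma-voom (0.052). Myocd, the muscle-restricted coactivator, had 0 reads in all libraries, which allows at most 3 reads in each.

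Among other cytoskeletal targets of MRTF and SRF, 14 of 23 tested genes rose, 3 fell and 6 did not pass, with a median log2 difference of 0.09 against 0.004 over all tested genes. The 4 risers with the smallest adjusted p were Actn1, a filament cross-linker (1.37-fold, adjusted p = 3.61e-10), Lima1, which stabilises filaments (1.37-fold, adjusted p = 8.38e-10), Itga5, an integrin for fibronectin (1.33-fold, adjusted p = 4.43e-09), and Ccn1, a secreted matrix protein (1.43-fold, adjusted p = 2.56e-08). In the other direction Ankrd1, a repeat protein of the sarcomere and nucleus, went from 464 ± 28.0 to 191 ± 12.4 normalised reads (SD, n = 3), a fall to 0.411 of the DMSO level (adjusted p = 1.57e-12). Mylk, the kinase of the myosin light chain, fell from 309 ± 36.5 to 140 ± 12.4 (adjusted p = 7.33e-10). Smtn, an actin-binding protein of contractile cells, fell to 0.897 (adjusted p = 0.0088), a call lost without DMSO replicate 3 (adjusted p = 0.064). The falls of Ankrd1 and Mylk were larger on the log2 scale than the difference of any member. Among the other risers, the calls of Nexn and Pdlim5 were lost with upper-quartile centring (adjusted p = 0.37 and 0.21). Both were also lost without STM2457 replicate 2 (0.093 and 0.059) or STM2457 replicate 3 (0.11 and 0.12), and each under further alternatives.

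The immediate-early targets of SRF and the TCFs were mixed, with 3 of 8 tested genes higher and 2 lower. Mcl1, a survival factor, rose 1.39-fold (adjusted p = 4.23e-10), Junb, an AP-1 subunit, 1.26-fold (adjusted p = 0.000848) and Btg2, an antiproliferative gene, 1.32-fold (adjusted p = 0.00994). Egr1 and Egr3, zinc finger factors, fell to 0.777 (adjusted p = 0.0106) and 0.795 (adjusted p = 0.00707). Without STM2457 replicate 1 limma called neither of them (adjusted p = 0.054 and 0.051), although 2 genes of the list were lower there at an unadjusted p under 0.05. Egr1 was also lost without DMSO replicate 3 (adjusted p = 0.071), and Btg2 without DMSO replicate 2 (adjusted p = 0.053) or with upper-quartile centring (0.086).

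**Figure D3:**
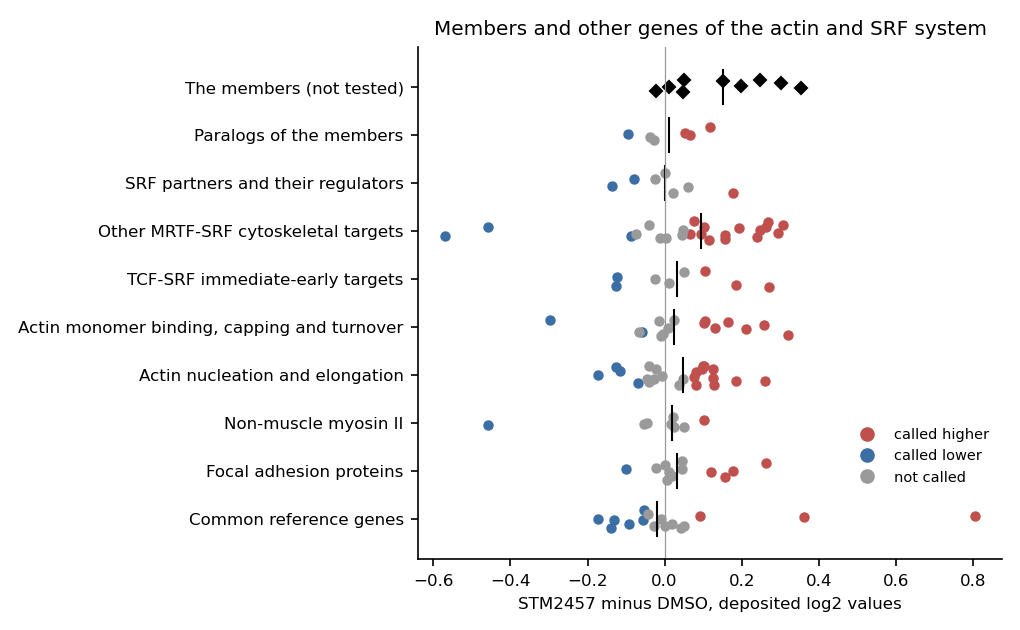
Differences of the deposited log2 values, STM2457 minus DMSO, for the 9 members with enough reads (black diamonds) and for the tested genes of each list (circles: red called higher, blue called lower, grey not called by limma); black bars are medians and vertical jitter has no meaning. The other MRTF-SRF targets hold 14 red and 3 blue points, the blue ones reaching -0.57 (Ankrd1), and the reference genes reach 0.81 (Tfrc).

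Of 15 tested genes that handle actin monomers and filament ends, 7 rose and 2 fell. Twf1 and Twf2, the twinfilins that bind monomers, rose 1.38-fold (adjusted p = 8.77e-09) and 1.35-fold (adjusted p = 4.65e-06), Dstn, a filament-severing relative of cofilin, 1.22-fold (adjusted p = 8.20e-06), and Cap1, which recharges monomers, 1.17-fold (adjusted p = 1.29e-05). Gsn, the severing and capping protein gelsolin, fell to 0.704 (adjusted p = 3.43e-10). The second fall, of Capza2 (0.933, adjusted p = 0.029), was lost without DMSO replicate 1 or any 1 of the STM2457 libraries (adjusted p from 0.064 to 0.12), with no filter (0.059) and without trend and robust priors (0.064).

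Among nucleators and elongators of filaments 11 of 23 rose and 4 fell. The 4 rises with the smallest adjusted p were of subunits of the branching Arp2/3 complex: Arpc4 1.38-fold (adjusted p = 1.32e-07), Arpc5 1.25-fold (adjusted p = 7.33e-07), Actr3 1.16-fold (adjusted p = 2.66e-05) and Actr2 1.16-fold (adjusted p = 7.09e-05). Arpc2 and Arpc3, subunits of the same complex, did not pass, at ratios of 0.954 and 1.05 (adjusted p = 0.116 and 0.205). Among the other risers, Arpc1a, Arpc1b and Wasf1 lost their calls with upper-quartile centring (adjusted p = 0.17, 0.079 and 0.22). Wasf1 was also lost with no filter (0.058), without DMSO replicate 1 (0.067) or without any 1 of the STM2457 libraries (0.051 to 0.074). Arpc1a was also lost without STM2457 replicate 2 (0.07). Enah, which extends filaments at the leading edge, fell to 0.811 (adjusted p = 6.21e-07), Wasf2, an activator of Arp2/3, to 0.860 (adjusted p = 2.97e-05), the formin Daam1 to 0.854 (adjusted p = 0.00196) and Wasl, another activator, to 0.912 (adjusted p = 0.0388). The call of Wasl was lost without DMSO replicate 3 (adjusted p = 0.13), STM2457 replicate 1 (0.18) or STM2457 replicate 2 (0.086), and with no filter (0.077).

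Of 8 tested genes of non-muscle myosin II 1 rose and 1 fell: Myh9, a heavy chain, rose 1.13-fold (adjusted p = 0.000282), and Mylk fell to 0.451 of its DMSO level, as given above. Myh10, another heavy chain, did not pass, at a ratio of 1.03 (adjusted p = 0.401). Without DMSO replicate 1 the count higher was 2, with Myl6 added, and without DMSO replicate 2 the count lower was 3, with Myl12a and Ppp1cb added. Of 12 tested focal adhesion genes 4 rose and 1 fell. The scaffold Bcar1 rose 1.37-fold (adjusted p = 6.46e-10), Lasp1, which binds actin at adhesions, 1.23-fold (adjusted p = 1.39e-06), Zyx, a sensor of tension in filaments, 1.20-fold (adjusted p = 1.49e-06) and Actn4, a filament cross-linker, 1.15-fold (adjusted p = 8.48e-05). Lims1, a partner of integrin-linked kinase, fell to 0.884 (adjusted p = 0.000609). Zyx, Myh9, Mylk and the untested Myl9 stand in 2 of the lists. The exons of Actn1, Actn4, Zyx, Mylk, Smtn, Junb, Twf1, Cap1, Mrtfa and Tpm4 overlap a gene on the opposite strand. So do those of Tagln, Cnn3, Ctnna1, Mrtfb, Elk3, Elk4, Arpc1a, Arpc1b, Myl12a, Gapdh and Tbp. Exons of Arpc4 share bases with Ttll3 on the same strand. Those of Actg1, Elk1, Nexn, Myl12a, Ppp1cb, Rpl13a and Eef1a1 also share bases with a same-strand neighbour. Reads there cannot be told apart from those of the neighbour.

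Actb served as a yardstick against 16 common reference genes. Gapdh, a glycolytic enzyme often used beside it, fell from 145494 ± 5713 to 119021 ± 992 normalised reads (SD, n = 3), to 0.818 of the DMSO level (adjusted p = 3.00e-07). The ratio of Actb to Gapdh was 0.224, 0.190 and 0.207 in DMSO and 0.337, 0.339 and 0.334 in STM2457, so that the ratio differed 1.63-fold between the groups, more than Actb alone. For Actg1 over Gapdh it was 1.74-fold. In all, the ratio of Actb to the reference gene was higher in every STM2457 library for 14 of the 16 and lower in every one for 2. Because the set was chosen for the rise of Actb in these libraries, a high count largely follows from that choice. The ratios are a description and lend no support to the rise.

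By the test over all genes 3 of the 16 reference genes rose, 6 fell and 7 did not pass. The transferrin receptor gene Tfrc rose 2.66-fold (adjusted p = 9.43e-18), Gusb, a lysosomal enzyme, 1.55-fold (adjusted p = 4.87e-12) and Tubb5, a tubulin, 1.11-fold (adjusted p = 0.000845). Besides Gapdh, the ribosomal protein gene Rpl13a fell to 0.846 (adjusted p = 2.03e-05), Pgk1, another glycolytic enzyme, to 0.857 (adjusted p = 3.13e-05) and Eef1a1, an elongation factor, to 0.899 (adjusted p = 0.000462). The other falls, of Ppia, a prolyl isomerase, to 0.941 (adjusted p = 0.0373) and of the ribosomal protein gene Rplp0 to 0.938 (adjusted p = 0.0328), were close to the threshold. Both calls were lost without trend and robust priors (adjusted p = 0.081 and 0.078), without DMSO replicate 3 (0.074 and 0.15), without STM2457 replicate 2 (0.11 and 0.14) and without STM2457 replicate 3 (0.14 and 0.11), and Ppia also without DMSO replicate 2 (0.076). Relative to Tfrc, Actb was lower after STM2457 (0.50 of the DMSO ratio), and relative to Gusb also (0.86). Relative to Ywhaz, whose own ratio was 1.00, Actb was 1.33-fold higher, and relative to Tbp, Hprt and B2m 1.30-fold, 1.27-fold and 1.25-fold.

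**Figure D4:**
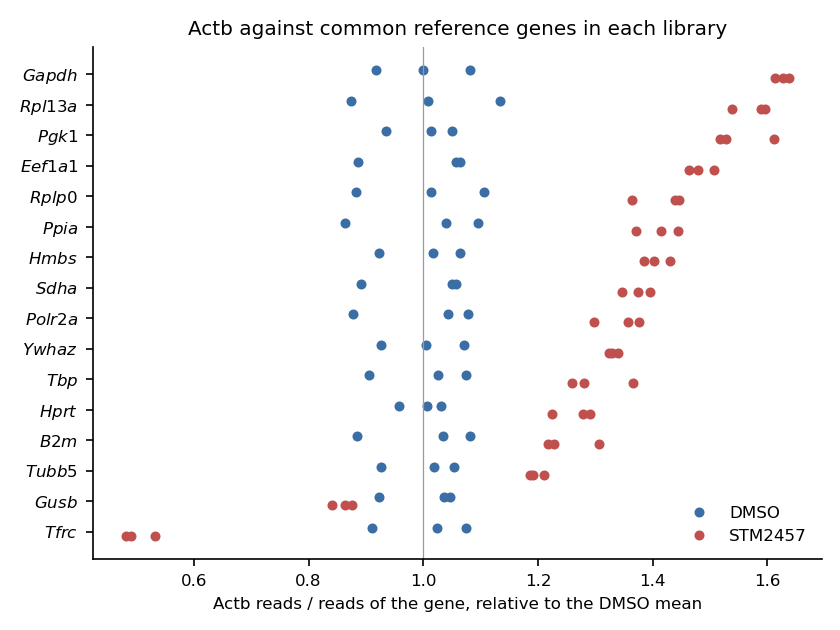
Actb reads divided by the reads of each of 16 reference genes, relative to the mean of that ratio in DMSO; each point is a library. The 3 STM2457 points lie above the DMSO points for 14 genes, most for Gapdh (1.63), and below them for Gusb (0.86) and Tfrc (0.50).

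Markers of other cell types were low beside the actins. The summed level of 6 smooth muscle markers was 16.9 to 26.0 normalised reads in DMSO and 18.9 to 42.6 in STM2457, with Myocd at 0 and only 1 of the 6 over 10 reads. The 7 fibroblast markers summed to 366.7 to 406.0 in DMSO and 372.5 to 414.2 in STM2457, which overlapped, but single markers moved in opposite directions. Pdgfrb, a growth factor receptor, rose 2.56-fold (adjusted p = 1.97e-09), while the collagen gene Col1a2 fell to 0.462 (adjusted p = 3.50e-08) and the matrix gene Lum to 0.317 (adjusted p = 0.00042), and the other 3 tested did not pass. The sums also overlapped for 5 leukocyte markers, at 89.3 to 111.5 in DMSO and 86.2 to 110.3 in STM2457. Adgre1 and Itgam were at 0 and only 1 of the 5 was over 10 reads, so this sum is almost wholly that of 1 gene. For 4 endothelial markers the sums overlapped as well, at 5.0 in each DMSO library and 4.0 to 8.9 in STM2457. The labels give the cells as lung cancer cells. Of 6 epithelial and lung lineage markers Epcam, Cdh1 and Nkx2-1 were at 0, and the sum was 10.0 to 12 in DMSO and 0 to 6.9 in STM2457. These sums did not overlap, but none of the 6 markers had enough reads to be tested, so they allow no comparison. The part of these cell types in the differences of the actins was not tested.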

How the data were processed

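RNA sequencing was made of 3 DMSO and 3 STM2457 libraries. Per the submitters' processing notes the tools were FastQC 0.11.9, HISAT2 2.2.1, featureCounts 2.0.1 and DESeq2, with the GRCm38 build. The sources used here do not give the annotation, the use of strand or the counting of shared reads. The authors deposited log2 values, 1 row per gene symbol. From the values, these have the form of a regularised log2 transform, shrunken towards the gene's mean. Inverting it (ridge penalty 60.19, prior SD 0.186) gave reads that were whole within 0.05 for 98.8% of values of genes with a mean under 500. The share was 81.5% above, where most members lie and the reads are less exact. It was 88.0% at means of 500 to 2000 and 66.3% from 2000, where Actb, Actg1, Flna, Tagln2, Cnn2 and Tpm1 lie. Exon lengths and positions come from GENCODE M21 (GRCm38).

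Genes with a mean deposited log2 value of at least 3.32, about 10 reads, were tested: 12618 of 24138 with a read. Limma 3.58.1 in R 4.3.3 (statmod 1.5.0; group as the only term, trend and robust priors) was fitted to the deposited values, with Benjamini-Hochberg adjustment and a threshold of 0.05. On simulated data for STM2457 against DMSO (12618 genes) 89 of 100 genes with a true log2 fold of 1 passed, 78 of 100 with 0.5 and 15 of 12418 without a change. In that simulation 12418 of 12618 genes had no change, whereas in the data 30.7% were called higher and 25.7% lower. The simulated share of false calls therefore does not carry over to the calls reported here. The members and lists were chosen with earlier results of these data known, and some listed genes are not reported here or counted in their lists. By rule the text names every member, Gapdh, and the tested paralogs and SRF partners. It also names the 4 genes of smallest adjusted p called in each direction in each other list. The last are the 5 genes with a gene name most correlated with Actb. Ywhaz, Tbp, Hprt, B2m, Myl6, Myl12a, Ppp1cb, Myh10, Arpc2, Arpc3, Ppia and Rplp0 fall outside the rule and were named after their values were seen. So do Arpc1a, Arpc1b, Wasf1, Nexn and Pdlim5. Alternatives were a replicate block, upper-quartile centring, other filters, no trend, limma-voom on the recovered reads and leaving out each library.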

Additional observations from a re-analysis of the deposited data

How the results depend on the processing

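All 5 members without overlap (Actb, Actg1, Srf, Flna, Cnn2) stayed apart under every alternative that gives this count. With upper-quartile centring the count was 7 and without STM2457 replicate 1 also 7; both include Tagln, whose 0 to 2 reads per library allow no comparison, beside Tpm1 and Tagln2 respectively. Without DMSO replicate 2 it was 6, with Tpm1. Leaving out 1 library moved the log2 difference of Actb from 0.197 to 0.279 and that of Srf from 0.337 to 0.371; on the recovered reads limma-voom gave 0.42 for Actb, 0.51 for Actg1 and 0.62 for Srf. No called result reversed. Counts of called genes moved by over 1.5 times as follows, and the cause was not tested. With upper-quartile centring, which shifts every gene down, paralogs had 1 higher and 3 lower, MRTF-SRF targets 5 lower, nucleators 7 lower, myosin genes 3 lower and adhesion genes 2 lower. Without trend and robust priors paralogs had 1 higher and monomer genes 1 lower. With no filter SRF partners had 1 lower and monomer genes 1 lower, and with limma-voom SRF partners had 1 lower. Leaving out each library in turn gave 1 to 3 paralogs higher, 1 to 2 SRF partners higher and 1 lower in each case, 0 to 2 TCF targets lower, 1 to 2 monomer genes lower, 1 to 2 myosin genes higher and 1 to 3 lower. The libraries were of like depth, and genes under about 10 reads, Tagln among them, could not be compared.

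With the replicate number as a replicate block 3864 genes were higher and 3226 lower, against 3868 and 3240. Deviations of same-numbered libraries from their group means correlated at 0.05, 0.01 and 0.04, so the numbers were not taken as pairs. Among list genes, the calls of Ppia (adjusted p = 0.053) and Rplp0 (adjusted p = 0.050) were lost with the block, and no other.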

Other observations

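Beyond the members, a CArG box in the promoter window did not come with a higher share of rises. Of 137 tested genes outside the set with a box, 37 rose (27.0%) and 38 fell (27.7%), with a median log2 difference of -0.007. Of 9239 tested genes with a promoter in the table and no box, 32.9% rose and 25.2% fell, with a median of 0.01. These are counts from the limma fit, and the difference between the sets was not tested. A match does not show that SRF binds there, and no match says only that the letters are not in this window. Whether SRF acted on these genes was not tested.

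The 5 genes with a gene name whose values were most like those of Actb shared its low DMSO replicate 2. That follows from choosing them by their correlation with Actb over these 6 libraries. Ankrd6 had 189, 152 and 177 reads in the DMSO libraries and 243, 248 and 245 after STM2457, and Fnbp4 had 1632, 1499 and 1580 and then 1818, 1831 and 1843. Lbhd1 had 154, 126 and 151 reads in DMSO and 191, 198 and 201 in STM2457.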
